A study of Homo sapiens with 4 samples.

Results

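The 9 genes described here are the cyclins that pace the cell cycle, chosen by gene symbol: CCND1, CCND2, CCND3, CCNE1, CCNE2, CCNA2, CCNB1, CCNB2 and CCNF. All 9 were found, each as 1 entry, among the 63241 genes of the deposited table. They were compared in 22Rv1 cells, an established line from castration-resistant prostate cancer, after 12 h with 40 nM JMC45 (n = 2 libraries) or with DMSO vehicle for the same time (n = 2 libraries). JMC45 is the name in the sample labels. It was taken to be the compound aimed at CDK9 that the series title calls a degrader, Compound 45 or D45. CDK9 is the kinase that releases paused RNA polymerase II into elongation. Both groups were grown in the same serum-containing medium, and poly(A)-selected RNA of each library was sequenced. Nothing in the labels ties a library to a culture of its own, and the spread that the p-values below are based on may therefore be technical.

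Cyclins are the regulatory subunits that switch on cyclin-dependent kinases. D-type cyclins with CDK4 or CDK6 begin the phosphorylation of RB in G1, E-type cyclins with CDK2 carry cells into S phase, cyclin A2 works with CDK2 in S phase and with CDK1 afterwards, and B-type cyclins with CDK1 drive mitosis. CCNF encodes cyclin F, which activates no known kinase and instead serves as the substrate receptor of an SCF ubiquitin ligase. Transcripts of the E, A, B and F members rise and fall with the cycle in dividing cells, whereas CCND1 follows growth signals.

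The level was measured as TPM, a share of the library scaled for transcript length, so levels can be set side by side between genes. A rise, fall or loss below is one of share, and the amount of transcript per cell cannot be read from it. A change is given as the log2 difference between JMC45 and vehicle of log2(TPM + 1), with its standard error, tested by limma across 14018 genes and adjusted over all of them by the Benjamini-Hochberg method. In bulk RNA, fewer cells in a phase of the cycle and less transcript per cell cannot be told apart. The JMC45 libraries had 26.6% and 29.3% of their TPM in mitochondrially encoded genes, against 20.4% and 20.1% in the vehicle libraries. Without those genes the 8 testable cyclins were still all called lower, as were 10695 of the 14003 genes tested there. The prostate epithelial markers KLK3, KLK2, HOXB13 and FOLH1 were above the mean TPM of 1 needed for testing. The 10 leukocyte, endothelial and stromal markers summed to 1.97 and 3.64 TPM in the JMC45 libraries and to 5.16 and 4.58 TPM in the vehicle libraries, and CD3E and CDH5 were listed at 0 in all 4. CDK9 itself had 4.36 ± 0.813 TPM in JMC45 cells and 21.3 ± 1.63 TPM in vehicle cells (SD, n = 2 each), a transcript level that is no check of the labels, because a degrader removes protein.

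CCNA2, CCNB1, CCNB2 and CCNF act from S phase to mitosis, and their promoters are shown as those of the late members of the family. Promoters of this class are known to carry CCAAT boxes, bound by NF-Y, and a cell cycle genes homology region, or CHR, through which the DREAM and B-MYB complexes act. The windows below are RefSeq sequences of build GRCh38.p14 from 250 bases before to 50 bases after the annotated start, 5′ to 3′ on the strand of the gene, and capitals mark the letters of a CCAAT box or a CHR form found on either strand.
CCNA2, chr4:121823834-121824133, minus strand: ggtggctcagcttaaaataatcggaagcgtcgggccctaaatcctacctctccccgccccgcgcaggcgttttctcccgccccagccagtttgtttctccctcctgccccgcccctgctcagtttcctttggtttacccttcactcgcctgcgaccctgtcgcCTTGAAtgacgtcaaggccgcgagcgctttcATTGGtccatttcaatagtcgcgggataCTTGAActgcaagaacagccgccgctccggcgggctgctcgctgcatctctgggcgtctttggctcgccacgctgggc
CCNB1, chr5:69166900-69167199, plus strand: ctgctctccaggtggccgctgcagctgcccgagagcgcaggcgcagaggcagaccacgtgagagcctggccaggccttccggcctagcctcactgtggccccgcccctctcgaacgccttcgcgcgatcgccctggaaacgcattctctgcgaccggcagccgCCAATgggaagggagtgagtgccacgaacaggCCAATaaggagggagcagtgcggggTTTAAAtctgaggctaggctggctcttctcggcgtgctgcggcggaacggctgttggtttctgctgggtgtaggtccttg
CCNB2, chr15:59104896-59105195, plus strand: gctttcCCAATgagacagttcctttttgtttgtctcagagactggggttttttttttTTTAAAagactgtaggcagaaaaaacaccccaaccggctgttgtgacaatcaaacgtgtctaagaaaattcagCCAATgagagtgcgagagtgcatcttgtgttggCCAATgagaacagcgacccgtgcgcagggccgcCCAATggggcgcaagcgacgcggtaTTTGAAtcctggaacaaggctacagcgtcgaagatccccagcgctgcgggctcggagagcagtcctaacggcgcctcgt
CCNF, chr16:2429197-2429496, plus strand: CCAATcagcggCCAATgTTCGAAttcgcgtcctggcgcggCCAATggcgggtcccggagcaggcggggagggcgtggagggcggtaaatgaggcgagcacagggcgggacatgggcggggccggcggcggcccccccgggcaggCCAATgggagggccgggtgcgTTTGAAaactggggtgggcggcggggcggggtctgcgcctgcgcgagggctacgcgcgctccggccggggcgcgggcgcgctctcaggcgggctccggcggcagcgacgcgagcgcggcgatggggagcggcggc

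The CCAAT box was searched as CCAAT, and the CHR in 5 forms, each on both strands, with no overlap between matches in the members. Of 35116 promoter windows of the same length in the table, 34.6% held a CCAAT box, 40.7% held at least 1 CHR form and 16.4% held both. All 4 windows printed held both, but they were printed as members of a class known for these elements, so the count shows no enrichment. In CCNA2, CCNB1 and CCNB2 a CHR form began 28, 30 and 29 bases before the start, and a CCAAT box began 56, 55 and 54 bases before it. CCNF had 4 CCAAT boxes, and its nearest CHR form began 85 bases before the start. Of the other members, CCNE1 had TTTAAA 28 bases before its start and no CCAAT box. Of the 3 windows listed for CCND3, 2 had a CCAAT box and none had a CHR form. No window of CCND1, CCND2 or CCNE2 was read, so their promoters are not described. By form of the CHR, TTTGAA was found in 15.2% of all windows. The form CTTGAA was found in 11.2% of them and the form TTGGAA in 15.1%. For TTTAAA the share was 12.2% and for TTCGAA it was 1.45%, so single matches of most forms are common. A match is a description of the letters and not a site of binding.

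Every cyclin with a detectable transcript had lower TPM after JMC45, and the E-type cyclins and cyclin A2 lost the most. Together the 9 genes had 279 and 268 TPM in the JMC45 libraries, against 1282 and 1182 TPM in the vehicle libraries. CCND2 (ENSG00000118971) was listed at 0 TPM in all 4 libraries, as was its antisense neighbour CCND2-AS1, and was not tested. The other 8 members passed the filter of a mean TPM of at least 1, and all 8 fell at an adjusted p under 0.05, on a background where 80.7% of all tested genes fell and 4.25% rose. In each of the 8 both JMC45 libraries lay below both vehicle libraries, which held for 85.7% of tested genes, while 6.28% lay the other way. A count of 8 of 8 is therefore close to the general shift, whose median was -1.10 on the log2 scale, and the sizes of the changes say more than the count. The median of the 8 members was -2.42.

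**Figure D1:**
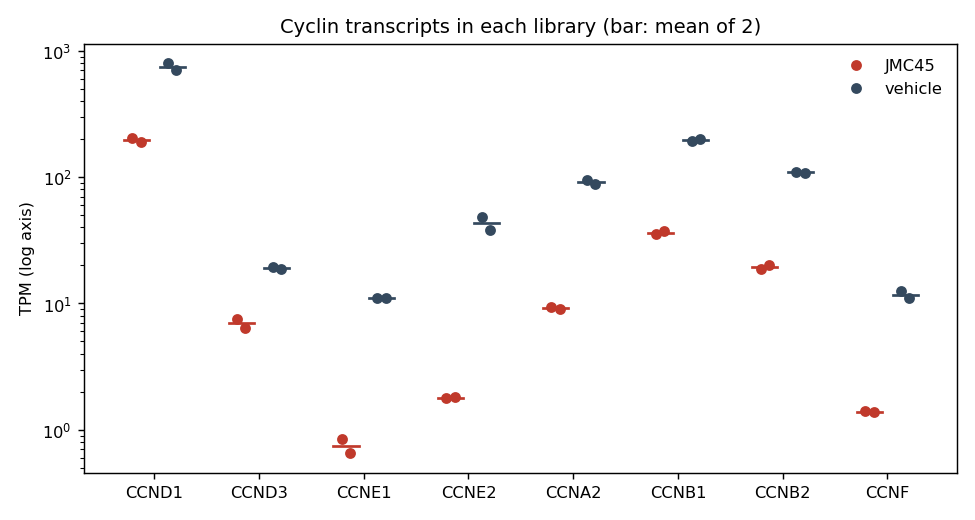
TPM of the 8 detected cyclins in each library on a log axis, with JMC45 left of vehicle, 1 point per library and a bar at the mean of 2. In every gene both JMC45 points lie below both vehicle points, and the gap is widest for CCNE2, at 1.78 and 1.82 TPM against 48.3 and 38.4 TPM.

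Among the D-type cyclins, CCND1 was by far the most abundant. CCND1 (ENSG00000110092) had 204 and 190 TPM in the JMC45 libraries, against 794 and 707 TPM in the vehicle libraries. The groups did not overlap, and the JMC45 mean was 26.3% of the vehicle mean, with 24.0% to 28.9% over the pairings of a JMC45 with a vehicle library. CCND1 fell by 1.92 on the log2 scale (SE 0.08, limma adjusted p = 1.11e-05). CCND3 (ENSG00000112576), the other D-type cyclin detected, had 7.54 and 6.45 TPM in the JMC45 libraries, against 19.4 and 18.8 TPM in the vehicle libraries. Its JMC45 mean was 36.6% of the vehicle mean, the smallest loss of the family, and its log2 change of -1.33 (SE 0.11, limma adjusted p = 7.88e-05) lay 0.23 below the median gene. The share of CCND1 in D-type TPM was 96.4% and 96.7% in the JMC45 libraries and 97.6% and 97.4% in the vehicle libraries, so this pool consisted almost entirely of CCND1 in both groups.

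The E-type cyclins were low in JMC45 cells. CCNE2 (ENSG00000175305) had 1.78 and 1.82 TPM in the JMC45 libraries, against 48.3 and 38.4 TPM in the vehicle libraries. The groups did not overlap, although the vehicle libraries differed from each other more than for most members. The JMC45 mean was 4.16% of the vehicle mean (3.69% to 4.74% over pairings of libraries), and the log2 change was -3.98 (SE 0.14, limma adjusted p = 9.88e-06). Only 10 of the 14018 tested genes had a more negative log2 change with 1 added to TPM. CCNE1 (ENSG00000105173) had 0.85 and 0.65 TPM in the JMC45 libraries, against 11.1 and 11.05 TPM in the vehicle libraries. Its JMC45 mean was 6.77% of the vehicle mean (5.86% to 7.69%), a larger proportional loss than that of CCNA2, but the added 1 in log2(TPM + 1) compressed its log2 change to -2.79 (SE 0.14, limma adjusted p = 1.48e-05). With an added value of 0.1 the change of CCNE1 was -3.73 and that of CCNA2 was -3.31, so the order of these 2 genes depends on the scale. CCNE2 made up 67.7% and 73.7% of E-type TPM in the JMC45 libraries, against 81.3% and 77.6% in the vehicle libraries. The groups did not overlap, and the difference was -8.79 percentage points, with p = 0.33 (two-sided exact permutation test), and 2 libraries against 2 allow no smaller p. Without JMC45 replicate 1 the difference was -5.79 percentage points.

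Cyclin A2, the S phase and G2 member, had 9.30 and 9.10 TPM from CCNA2 (ENSG00000145386) in the JMC45 libraries, against 95.3 and 88.6 TPM in the vehicle libraries. Both JMC45 values lay far below both vehicle values, and the libraries within each group were close to each other. The JMC45 mean was 10.0% of the vehicle mean (9.55% to 10.5%), and CCNA2 fell by 3.19 on the log2 scale (SE 0.08, limma adjusted p = 9.20e-06), with 121 genes showing a more negative log2 change.

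The B-type cyclins had losses of similar size. CCNB1 (ENSG00000134057) had 35.5 and 37.4 TPM in the JMC45 libraries, against 192 and 199 TPM in the vehicle libraries. CCNB2 (ENSG00000157456) had 18.6 and 20.3 TPM in the JMC45 libraries, against 109.8 and 108.1 TPM in the vehicle libraries. Neither gene's groups overlapped. The JMC45 means were 18.6% of the vehicle mean for CCNB1 (17.8% to 19.4%) and 17.9% for CCNB2 (16.96% to 18.8%), ranges that overlapped each other. The log2 changes were -2.39 for CCNB1 (SE 0.07, limma adjusted p = 9.20e-06) and -2.43 for CCNB2 (SE 0.08, limma adjusted p = 9.82e-06). CCNB1 made up 65.6% and 64.8% of B-type TPM in the JMC45 libraries and 63.7% and 64.8% in the vehicle libraries, which overlapped (difference 0.93 percentage points, two-sided exact permutation p = 0.67). That difference was 0.52 without JMC45 replicate 1, 0.35 without vehicle replicate 1 and 1.51 without vehicle replicate 2.

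CCNF (ENSG00000162063) had 1.41 and 1.38 TPM in the JMC45 libraries, against 12.5 and 11.1 TPM in the vehicle libraries. The groups did not overlap, and the JMC45 mean was 11.9% of the vehicle mean (11.1% to 12.7%). CCNF fell by 2.41 on the log2 scale (SE 0.13, limma adjusted p = 1.86e-05), a value within 1 SE of those of CCNB1 and CCNB2, while its proportional loss was larger, its low TPM being compressed by the added 1.

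Ordered by level, the JMC45 libraries had CCND1 first, then CCNB1, CCNB2, CCNA2, CCND3, CCNE2, CCNF and CCNE1, with no overlap between neighbours. The vehicle libraries had CCND1 first, then CCNB1, CCNB2, CCNA2, CCNE2, CCND3, CCNF and CCNE1, and only CCNF (11.08 and 12.46 TPM) and CCNE1 (11.05 and 11.1 TPM) overlapped. CCNE2 and CCND3 thus changed places. Ordered by the JMC45 mean as a percentage of the vehicle mean, CCNE2 lost the most, followed by CCNE1, CCNA2, CCNF, CCNB2, CCNB1, CCND1 and CCND3, and only CCNB1 and CCNB2 had overlapping ranges over the pairings of libraries.

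The losses changed the make-up of the cyclin pool, which is a comparison within each library and does not change when a whole library is multiplied by a factor. D-type cyclins made up 75.9% and 73.6% of all cyclin TPM in the JMC45 libraries, against 63.4% and 61.4% in the vehicle libraries. E-type cyclins made up 0.941% and 0.923% in the JMC45 libraries, against 4.63% and 4.18% in the vehicle libraries. CCNA2, CCNB1, CCNB2 and CCNF together made up 23.2% and 25.5% in the JMC45 libraries, against 31.9% and 34.4% in the vehicle libraries. None of these shares overlapped between groups. For the last one the difference was -8.85 percentage points (two-sided exact permutation p = 0.33, the smallest possible).

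**Figure D2:**
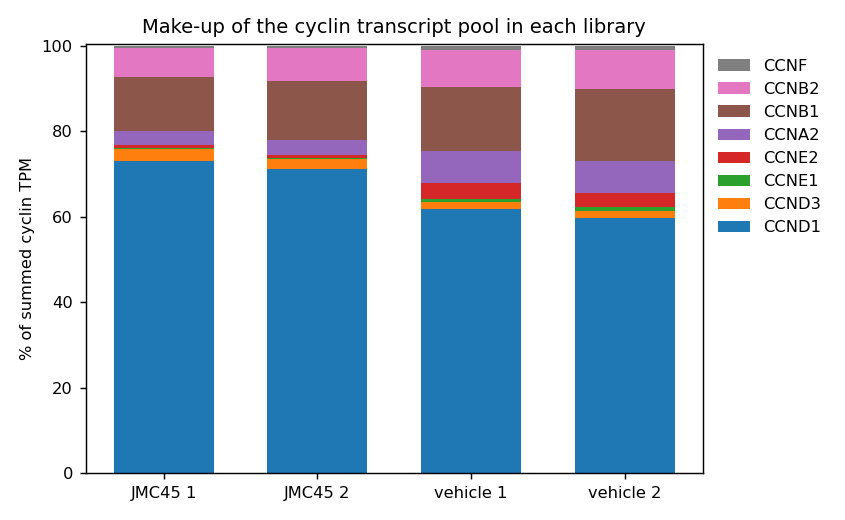
Stacked bars give each cyclin's percentage of the summed cyclin TPM in each library, JMC45 left and vehicle right. CCND1 fills 73.2% and 71.2% of the JMC45 bars and 61.9% and 59.8% of the vehicle bars, and the CCNE2 band shrinks to 0.637% and 0.680%, against 3.77% and 3.25%.

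Because most genes had lower TPM in JMC45 cells, the members were also read after scaling that sets the typical gene to no change. After median-of-ratios scaling the median gene changed by -0.016, and 35.5% of tested genes were called lower and 34.9% higher. Of the 8 members 7 were called lower and none higher there. The log2 changes were -2.85 for CCNE2, -1.90 for CCNA2, -1.85 for CCNE1, -1.37 for CCNF, -1.11 for CCNB2, -1.06 for CCNB1 and -0.57 for CCND1. CCND3 was the exception, at -0.093 (SE 0.11, limma adjusted p = 0.474). Quantile normalization, under which 34.5% of genes were called lower and 32.7% higher, also called 7 members lower and none higher, and gave CCND3 a value of 0.0010 (limma adjusted p = 0.994). The members most dependent on the choice between these scalings were CCND1, at -1.73 after quantile normalization, and CCNB1, at -1.77. CCND3 therefore fell in TPM but did not pass the test relative to the typical gene. CCNE2 had one of the most negative log2 changes on each scale. After median-of-ratios scaling 9 genes were more negative, and by quantile normalization 14 were. Each scale adds 1, which compresses the change of genes with low TPM, so these ranks depend on it. E2F8 kept 3.01% of its vehicle mean, less than CCNE2 at 4.16%, but its log2 change on TPM was -3.22. With 0.1 added E2F8 was at -4.70, against -4.505 for CCNE2.

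**Figure D3:**
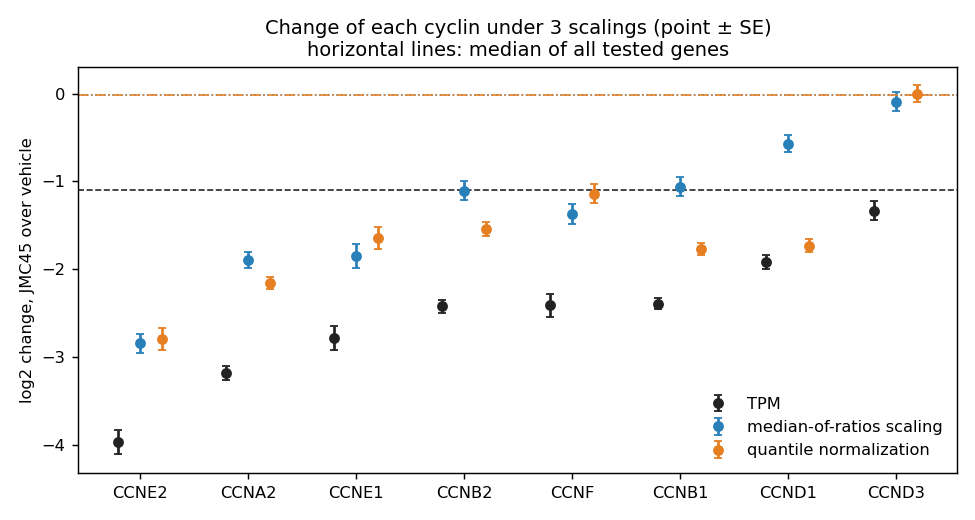
Log2 change of each cyclin, JMC45 over vehicle, with its SE, for TPM and for the median-of-ratios and quantile scales, and horizontal lines at the median of all 14018 tested genes on each scale (-1.10, -0.016 and -0.012). Each cyclin lies below the line of its own scale, CCNE2 the furthest, except CCND3 under quantile normalization (0.0010).

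**Figure D4:**
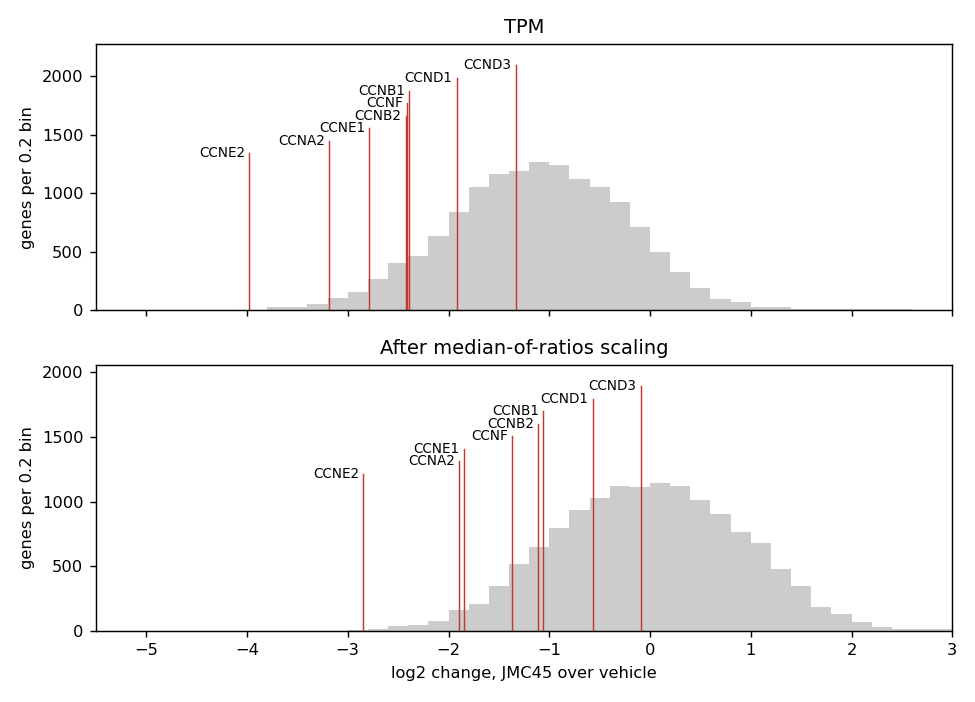
Histograms of the log2 change, JMC45 over vehicle, of the tested genes in bins of 0.2, on TPM (upper panel) and after median-of-ratios scaling (lower panel), with a vertical line for each cyclin. On TPM 39.9% of tested genes were more negative than CCND3, which sits near the middle of both distributions, and 0.0713% were more negative than CCNE2, in the far left tail.

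All 4 partner kinases fell on TPM, as did 80.7% of all tested genes, and by less than most of the cyclins. CDK1, the mitotic kinase, had a log2 change of -1.25, CDK2 of -0.89, CDK4 of -0.87 and CDK6 of -0.48, with a median of -0.88, against -1.10 for all genes. After median-of-ratios scaling CDK2 (0.45), CDK4 (0.48) and CDK6 (0.48) were called higher and CDK1 had a value of 0.093, and after quantile normalization CDK1, CDK2 and CDK4 were called lower and CDK6 higher (0.69), so the direction of CDK2 and CDK4 relative to other genes rests on the scaling, while CDK6 was called higher under both. The TPM call of CDK6, present at only 1.97 ± 0.0849 TPM in JMC45 cells and 3.17 ± 0.488 TPM in vehicle cells (SD, n = 2 each), was lost without JMC45 replicate 1 (-0.45), JMC45 replicate 2 (-0.51) or vehicle replicate 1 (-0.36).

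Ratios of cyclin to kinase within a library do not change when the whole library is multiplied by a factor. D-type cyclin TPM was 1.27 and 1.22 times that of CDK4 and CDK6 in the JMC45 libraries, against 2.77 and 2.36 times in the vehicle libraries. E-type cyclin TPM was 0.0381 and 0.0339 times that of CDK2 in the JMC45 libraries, against 0.433 and 0.389 times in the vehicle libraries. CCNA2 was at 0.135 and 0.125 times CDK2 in the JMC45 libraries, against 0.694 and 0.698 times in the vehicle libraries. B-type cyclin TPM was 0.784 and 0.833 times that of CDK1 in the JMC45 libraries, against 1.78 and 1.91 times in the vehicle libraries. All 4 ratios were lower in both JMC45 libraries than in either vehicle library. On the log2 scale the differences were -1.04 for D-type, -3.52 for E-type, -2.43 for CCNA2 and -1.19 for B-type cyclins, each with a two-sided exact permutation p = 0.33, the smallest possible.

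**Figure D5:**
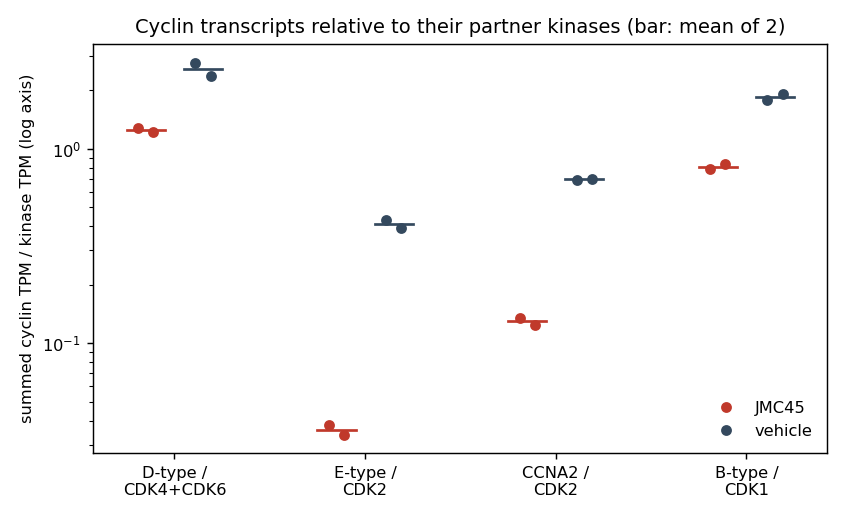
Summed TPM of each cyclin class divided by that of its partner kinases in each library, on a log axis, with JMC45 left of vehicle, 1 point per library and a bar at the mean. All 4 ratios lie lower in JMC45, with the widest gap for the E-type cyclins over CDK2.

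Genes that restrain or activate cyclin-dependent kinases did not all move with the cyclins. Of 8 genes in the list of kinase inhibitors 7 were tested, of which 5 fell and 1 rose, where 80.7% of all tested genes fell and 4.25% rose, and the median was -1.44. CDKN1A, which encodes p21 and is a p53 target, was the one that rose, with 37.1 ± 3.89 TPM in JMC45 cells and 20.2 ± 0.00707 TPM in vehicle cells (SD, n = 2 each; log2 change 0.84). CDKN1B, which encodes p27, had 20.0 ± 1.60 TPM in JMC45 cells and 110.8 ± 10.9 TPM in vehicle cells (-2.41). CDKN2C, an inhibitor of CDK4 and CDK6, fell by 2.72, CDKN3, a phosphatase of CDK2 listed with the inhibitors, fell by 1.67, and CDKN1C, which encodes p57, fell by 1.44 but was not called after median-of-ratios scaling (-0.43) or quantile normalization (-0.19). CDKN2A, whose products include p16, had a log2 change of 0.18 that did not pass on TPM, and was called higher after median-of-ratios scaling (1.499) and quantile normalization (1.14). With median-of-ratios scaling 3 of these inhibitors were called lower and 3 higher, on a background of 35.5% and 34.9% of all genes.

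All 10 genes of kinase activation and braking fell, against 80.7% of all genes, with a median of -2.57, against -1.10. Relative to the typical gene, by median-of-ratios scaling, 7 were called lower and 1 higher, against 35.5% and 34.9% of all genes. The phosphatases CDC25C and CDC25A, which activate the kinases, fell, with log2 changes of -3.46 and -2.91. The opposing kinases WEE1 and PKMYT1, which hold CDK1 inactive, had log2 changes of -2.94 and -2.75, so genes of both directions of control fell.

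All 24 genes of cyclin transcription, the E2F, RB, DREAM, NF-Y, B-MYB and FOXM1 factors with MYC, fell, against 80.7% of all genes, with a median of -1.61. Under median-of-ratios scaling 13 were called lower and 4 higher, against 35.5% and 34.9% of all genes. MYBL2, which encodes B-MYB, and FOXM1 were among those called higher (0.52 and 0.63). On TPM they had changes of -0.79 and -0.70, less than the median gene at -1.10. After quantile normalization MYBL2 was called higher (0.26) and FOXM1 was not called (0.10). The repressor E2F8 had the largest decrease, with 0.35 TPM in both JMC45 libraries and 11.6 ± 1.71 TPM in vehicle cells (-3.22). The MuvB subunits LIN37 and LIN54 had log2 changes of -2.82 and -2.45, and MYC one of -2.65. LIN37 was low and uneven in the JMC45 libraries, at 1.94 and 0.68 TPM (SE of its change 0.26). Its change ranged from -3.22 to -2.41 when single libraries were left out.

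Genes of the ligases that destroy cyclins had medians nearer to that of all genes. Of 19 genes of the anaphase-promoting complex, the ligase that marks A- and B-type cyclins for destruction, with its helpers and its inhibitor FBXO5, 17 fell and none rose, against 80.7% and 4.25% of all genes, with a median of -1.32. The calls with median-of-ratios scaling were 4 lower and 5 higher, against 35.5% and 34.9% of all genes. The activators CDC20 and FZR1 fell, CDC20 with a log2 change of -3.52 and FZR1 with 4.10 ± 0.354 TPM in JMC45 cells and 19.5 ± 2.75 TPM in vehicle cells (SD, n = 2 each). FBXO5 had a log2 change of -1.86 and the small subunit ANAPC13 one of -1.70. Of 14 genes of the ligases of cyclins D and E 13 fell and none rose, against the same 80.7% and 4.25%, with a median of -1.38. Under median-of-ratios scaling 5 were called lower and 3 higher, against the same 35.5% and 34.9%. The scaffolds CUL1 and CUL3 had log2 changes of -3.18 and -2.05 and the F-box gene FBXL12 one of -2.04. KLHL9, a CUL3 adaptor better known for acting on Aurora B than on cyclins, fell by 2.93.

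All 6 genes of the list of cyclin F substrates fell, against 80.7% of all genes, with a median of -2.50, and 5 were called lower after median-of-ratios scaling, against 35.5% of all genes. The origin licensing factor CDC6 had a log2 change of -3.76, the ribonucleotide reductase subunit RRM2 of -2.88, the exonuclease EXO1 of -2.87 and SLBP, which binds histone mRNA, of -2.13.

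Of 21 other cyclin genes, which work mainly in transcription or outside the core cycle, 17 were tested, of which 13 fell and 1 rose, a split close to the 80.7% and 4.25% of all tested genes, with a median of -1.27, against -1.10. With median-of-ratios scaling 6 were called lower and 5 higher, against 35.5% and 34.9% of all genes. CCNG2 had a log2 change of -2.43, CCNJ of -1.92, CCNQ of -1.90 and CCNT1, the cyclin partner of CDK9, of -1.75. CCNL2, a cyclin linked to splicing, had 78.7 and 67.7 TPM in the JMC45 libraries, against 64.3 and 50.2 TPM in the vehicle libraries, and rose by 0.36 (limma adjusted p = 0.0471). That call was lost without JMC45 replicate 1 (0.25), JMC45 replicate 2 (0.46) or vehicle replicate 2 (0.18). CCNA1, the A-type cyclin of the germ line, was listed at 0 in all 4 libraries.

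The genes whose values over the 4 libraries were most like those of a member, among 9076 genes with a symbol and a mean TPM of at least 5, were found by the Euclidean distance of log2(TPM + 1) after subtracting the vehicle mean. Nearest to CCND1 were FOXRED2 (distance 0.0089), SBNO2 (0.035) and LINC01128 (0.037). Nearest to CCNB1 were PTPN6 (0.027), SURF6 (0.036) and NIT1 (0.039). Nearest to CCNE2 were SRSF3 (0.095), HNRNPDL (0.21) and C1orf116 (0.24), at longer distances. The distances depend on the added 1, because the genes nearest to CCND1 and CCNB1 had much lower TPM than these cyclins. FOXRED2, SBNO2 and LINC01128 kept 23.3%, 23.4% and 18.7% of their vehicle means, against 26.3% for CCND1. After quantile normalization their log2 changes were -0.60, -0.59 and -0.615, against -1.73 for CCND1. After median-of-ratios scaling they were -0.69, -0.68 and -0.86, against -0.57 for CCND1. The likeness to CCND1 was thus lost by quantile normalization and closer under median-of-ratios scaling.

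The annotated genes differ widely in extent. In GENCODE release 29, used here for lengths only, CCND3 spans 115425 bases, against 7490 for CCNA2, 11236 for CCNB1, 12411 for CCNE1, 13388 for CCND1, 16909 for CCNE2, 19968 for CCNB2 and 29461 for CCNF. CCND3, with the smallest loss, had the longest gene, and CCNE2, with the largest loss, lay in the middle of the order, with no relation tested.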

How the data were processed

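RNA of 4 libraries was analysed, 2 after JMC45 and 2 after vehicle. The authors deposited TPM per Ensembl gene and library, per the file headers. Per the submitters' processing notes the tools included StringTie, HISAT2 and fastp. The build, the annotation and the strand setting were not given in the sources used here. Depth is unknown from TPM, so no counting intervals are given. 50 lines without values were left out. Of the gene identifiers 62666 matched a symbol and 575 did not. The columns headed as controls were assigned to vehicle by name and number.

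Only genes averaging 1 TPM or more were tested on log2(TPM + 1) with limma 3.58.1 in R 4.3.3, with an intensity trend, no replicate block, and an adjusted p threshold of 0.05. The test was also run on simulated data in which a small part of the genes changed. Those data had no general shift, so that run does not bear on the shift seen here. For single ratios the exact permutation test was two-sided (scipy 1.17.1). Figures were drawn with matplotlib 3.10.9, and summaries used numpy 2.4.6 and pandas 2.3.3 in Python 3.11.15. RefSeq promoter windows were read for 6 of the 9 members. Member windows on chromosome 8, where CCNE2 lies, were left out of the search. Alternatives were an added value of 0.1, no filter, median-of-ratios scaling, quantile normalization, TPM without mitochondrially encoded genes, a replicate block, and the omission of single libraries.

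The members and lists were chosen with earlier results of these data known. Named were all members, CDK9, CDKN1A, MYC, in each list up to 4 tested genes with the largest change past the threshold and those that moved against the rest, and the 3 genes nearest in pattern to CCND1, CCNE2 and CCNB1. CDKN2A, MYBL2, FOXM1, CCNA1, CCND2-AS1 and the markers named were chosen after their values were seen. Some prostate markers are not reported here.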

Additional observations from a re-analysis of the deposited data

How the results depend on the processing

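The 8 detected cyclins were called lower under each alternative on TPM that kept all libraries. So were 11272 of 14018 genes with 0.1 added, 13861 of 31100 without the filter and 10695 of 14003 without the mitochondrially encoded genes. The count of cyclins is therefore read against a general shift. Without any 1 library their log2 changes stayed negative, from -4.14 for CCNE2 to -1.24 for CCND3. Under median-of-ratios scaling and quantile normalization 7 were called lower, and CCND3 (-0.093 and 0.0010) was not. The 91 genes of the other lists called lower and 2 called higher became 43 and 24 after median-of-ratios scaling and 52 and 18 after quantile normalization. Those called higher were 6 without the mitochondrially encoded genes, 1 without the filter, and 1 to 2 without 1 library. Over all genes, 4981 were called lower and 4888 higher after median-of-ratios scaling, and 4830 and 4581 after quantile normalization, against 11311 and 596 on TPM. Both scalings centre the median gene by construction. Changes of direction included those of CDK1 (0.093), CDK2 (0.45), CDK4 (0.48) and CDK6 (0.48) after median-of-ratios scaling, and of CDK6 (0.69) and CCND3 after quantile normalization. The marker KLK2, at -0.63 on TPM, was called higher under both (0.68 and 0.42).

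Leaving out each library in turn gave differences, JMC45 minus vehicle, of -1.07 to -0.79 percentage points for the CCND1 share of D-type TPM, -11.8 to -5.79 for the CCNE2 share, 0.35 to 1.51 for the CCNB1 share and -10.1 to -7.62 for the share of CCNA2, CCNB1, CCNB2 and CCNF. The log2 ratios ranged from -1.15 to -0.92 for D-type, -3.60 to -3.43 for E-type, -2.48 to -2.37 for CCNA2 and -1.24 to -1.14 for B-type cyclins.

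The labels share replicate numbers between groups without saying that they pair the libraries, and deviations of same-numbered libraries correlated at -0.047 across genes. With the replicate block 11380 genes were called lower and 613 higher, 8 cyclins and 91 list genes lower, and 2 list genes higher. CDK6 was also not called without the filter (-0.48) or without the mitochondrially encoded genes (-0.41), and CCNL2 not without the filter (0.36). CCNE1 and CCNF lie near 1 TPM in JMC45 cells, where the added value sets the size of the log2 change (-3.73 and -2.99 with 0.1), and their depth is unknown.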
